A study of Danio rerio with 3 samples.

Results

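Neuropeptide and secretory granule genes were examined in whole zebrafish larvae at 7 days post fertilization, as a set of 41 symbols of peptide precursors, granins and peptide-processing enzymes. Members were taken where the symbol of a deposited gene row equalled a listed symbol, and 38 of the 41 symbols matched. Because scg5 stands on 2 rows with different gene identifiers, the set came to 39 rows of 24555 genes: 30 rows of precursors and 9 of granins and processing enzymes. The symbols pmcha, pmchb and cart3 matched no row and were not analysed here.

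The study has 3 groups on the AB background, with 1 library each from the pooled RNA of 30 larvae. The transgenic group carried a Tet-On driver under the neuronal huC promoter and a tre responder for serpini1 with the fluorescent protein mKate2. The knockout group was titled serpini1-/-, and the control group was wild type. Larvae of all 3 groups, the control included, received doxycycline at 40 µg/mL between days 3 and 7, and no group had the driver and mKate2 without serpini1. Serpini1 can therefore not be told apart from the driver and the red protein in the transgenic group, and no library was free of the drug. With 1 library per group no difference below has a replicate check, a p-value or an SD.

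Neuropeptides are made as larger precursors that enter the regulated secretory pathway. In the trans-Golgi network granins help to form dense-core granules, and inside these the prohormone convertases cut the precursors at basic residues. Carboxypeptidase E then trims the basic residues that remain, and the peptides are stored until calcium releases them. Serpini1 encodes neuroserpin, an inhibitor of serine proteases that neurons secrete. Many neuropeptides are made by small groups of hypothalamic or brainstem cells of a larva, whereas granins and convertases are shared by most peptidergic neurons and by endocrine cells of the pituitary, gut and pancreas.

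Levels are given in FPKM (fragments per kilobase of transcript, scaled to library depth), which are per length and can be compared between genes. Serpini1 itself checked the labels, at 288 FPKM in the transgenic library, 8.05 in the knockout and 20.0 in control, so its transcript was still present in the library labelled knockout. Depth was recovered from the deposited p-values as about 8120000 fragments in the transgenic, 7900000 in the knockout and 7880000 in the control library. Each fold below is a ratio of FPKM, and the interval after it is a 95% Clopper-Pearson interval on the reads behind it, which covers counting error only. Of 32 rows with an interval and at least 1 FPKM in either library, 9 lay below control and 1 above in the transgenic library. In the knockout 3 of 32 lay below control and 1 above. The intervals were not adjusted for their number, so some can miss 1 by counting error alone. The share of all genes whose interval misses 1 is not given here, so these counts do not set the members apart from other genes. At this depth a short precursor near 5 FPKM rests on few reads, and cart4, for one, had 22 reads in the transgenic, 25 in the knockout and 24 in the control library.

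The median precursor level in whole larvae was near that of detected genes at large, and that of granin and processing genes was higher. The median over precursor rows was 4.73 FPKM in the transgenic, 5.24 in the knockout and 5.01 in the control library. The median over granin and processing rows was 13.8 FPKM in the transgenic, 20.8 in the knockout and 20.5 in the control library. For scale, the median of all genes at 1 FPKM or more was 5.68 in the transgenic, 5.53 in the knockout and 5.67 in the control library. The precursor medians above include rows under 1 FPKM. Among rows with at least 1 FPKM in the transgenic or control library, the control median was 5.22 for precursors and 5.19 for all genes. The transgenic medians of the same rows were 4.88 and 5.37. The precursor rows between 1 and 10 FPKM numbered 23 in the transgenic, 21 in the knockout and 23 in the control library. Of the 30 precursor rows, pmch, cart1 and kiss1 had no knockout value. The knockout count and the knockout median of precursors therefore leave out these low rows. The granin scg2b had the highest level of the set in every library. Below it scg3, cpe and cckb held ranks 2 to 4 in every library, with scg3 at rank 2 in the transgenic and knockout libraries and cpe in control. The convertase pcsk1 was at rank 15 in the transgenic library and at rank 9 in the knockout and control libraries.

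**Figure D1:**
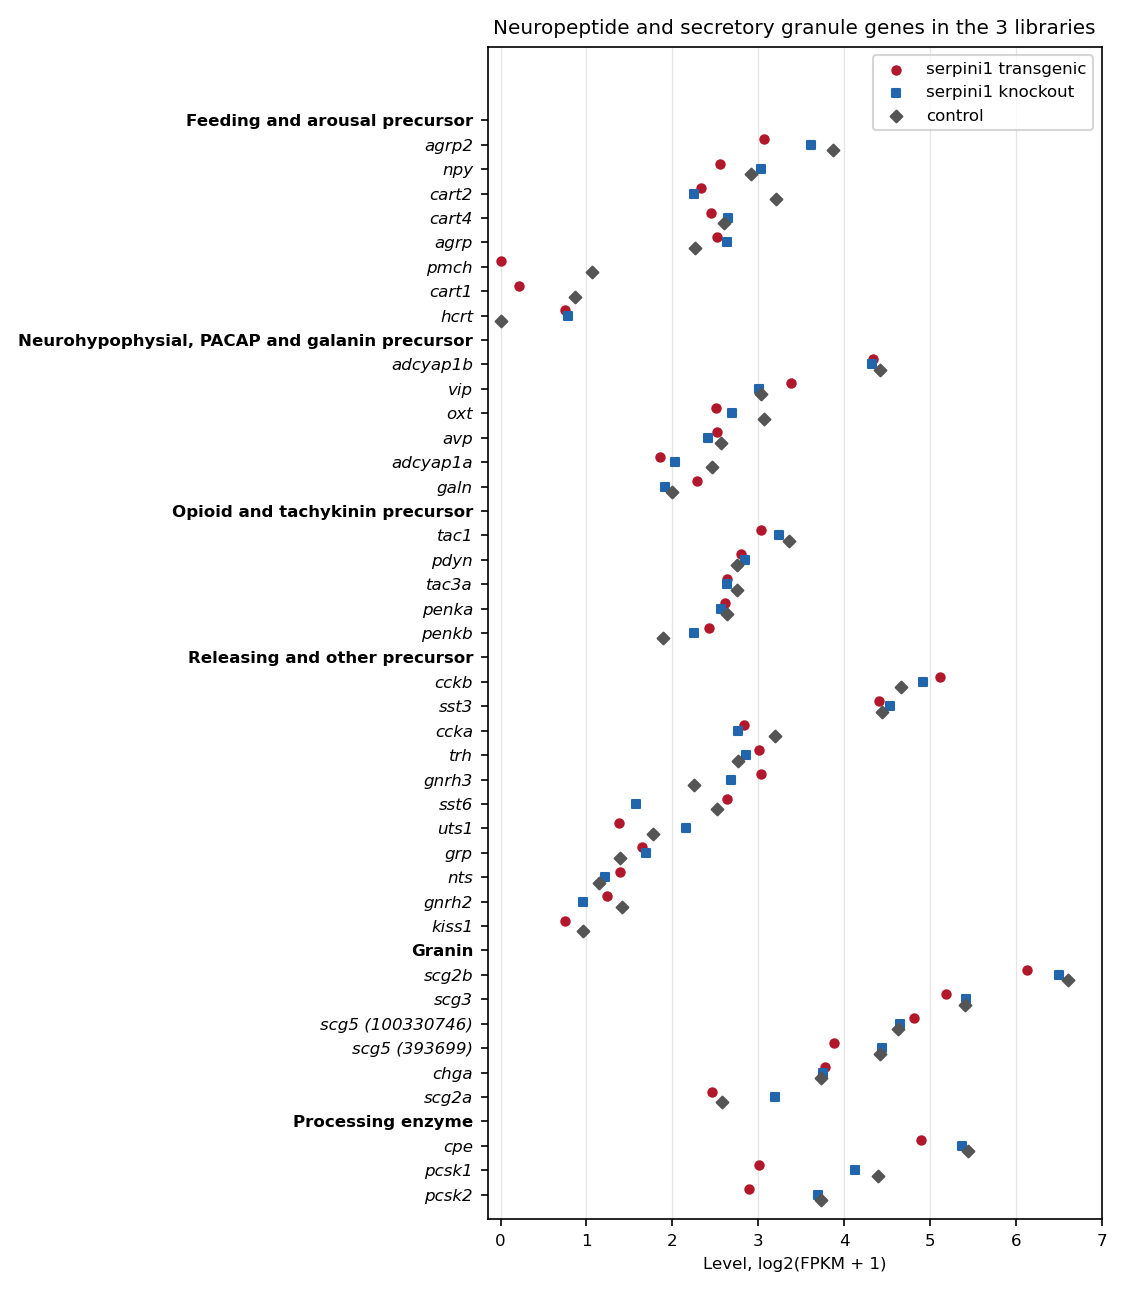
Level of each member as log2(FPKM + 1) in the transgenic (circles), knockout (squares) and control (diamonds) library, 1 library each, grouped by role and ordered by mean FPKM within a role. The 3 marks of most precursors lie close together, while the transgenic mark of pcsk1, pcsk2, cpe and scg2b lies left of the other 2; pmch, cart1 and kiss1 have no knockout mark.

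Among precursors of feeding and arousal peptides, cart2 was the member whose counting intervals lay below control in both the transgenic and the knockout library. Cart2, a precursor of the anorexigenic CART peptides, had 4.06 FPKM in the transgenic library, 3.78 in the knockout and 8.24 in control, on 19, 17 and 37 reads in the same order. The transgenic library was 2.03-fold below control (1.14 to 3.74) and the knockout level was 0.46 of control (0.24 to 0.84). These 2 comparisons share the control library, so the control value enters both. In RNA of whole larvae, here and below, fewer cells of a type and less RNA per cell cannot be told apart. Agrp2, an agouti family gene that the RefSeq table names asip2b, had 7.40 FPKM in the transgenic library, 11.3 in the knockout and 13.7 in control. It was 1.85-fold lower in the transgenic library (1.29 to 2.69) and 1.21-fold lower in the knockout (0.88 to 1.68). For this gene the deposited p-value called for only 0.275 of the reads that its listed length gives, so an estimated 48 reads stood behind the transgenic, 72 behind the knockout and 87 behind the control level. Other read numbers match that p-value too, so the agrp2 intervals hold only if the ratio of its reads is that of its FPKM.

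The intervals of npy and cart4 held 1, so neither differed from control beyond counting error in the transgenic library. The orexigenic peptide gene npy had 4.88 FPKM in the transgenic library, 7.19 in the knockout and 6.57 in control, 1.35-fold lower in the transgenic library (0.76 to 2.40). Cart4 had 4.47, 5.28 and 5.08 FPKM in the same order, 1.14-fold lower in the transgenic library (0.61 to 2.13). Agrp, which opposes melanocortin signalling, had 4.75 FPKM in the transgenic library, 5.22 in the knockout and 3.79 in control. Its reads could not be recovered, and no interval is given.

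Rare hypothalamic precursors lay at the limit of detection. Hypocretin (hcrt), the wake-promoting orexin precursor, had 0.68 FPKM in the transgenic library and 0.72 in the knockout, 2 reads in each, and was listed at 0 in control. A count of 0 reads in control allows up to 1.06 FPKM, so no difference in hcrt was detectable at this depth. The melanin-concentrating hormone gene pmch was listed at 0 in the transgenic library, where 0 reads allow up to 0.789 FPKM, against 1.09 FPKM from 4 reads in control. Cart1 had 0.16 FPKM in the transgenic library and 0.83 in control, that is 1 read and 5 reads. For pmch, cart1 and kiss1 no knockout value was used, since the table of all libraries used here ends at 0.58 FPKM in the knockout.

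Among the neurohypophysial and PACAP family genes, adcyap1a was the one whose interval lay below control in the transgenic library. Oxt, the oxytocin-like precursor of the preoptic area, had 4.67 FPKM in the transgenic library, 5.49 in the knockout and 7.40 in control, 1.58-fold lower in the transgenic library (0.91 to 2.81). Avp, the vasotocin precursor of the same region, had 4.72, 4.32 and 4.94 FPKM in the same order, a transgenic level 1.05-fold lower than control (0.49 to 2.24). Both intervals hold 1, so neither gene differed beyond counting error. The PACAP genes are adcyap1a and adcyap1b, whose peptide raises cyclic AMP in its target cells. Adcyap1b was well measured, at 19.2 FPKM in the transgenic library, 19.1 in the knockout and 20.5 in control, and its transgenic level was 0.94 of control (0.83 to 1.07). Its paralogue adcyap1a had 2.63, 3.08 and 4.51 FPKM in the same order and was 1.71-fold lower in the transgenic library (1.05 to 2.84), on reads that were also scaled to the deposited p-value. Vip, which shares an ancestor with PACAP and acts in gut and brain, had 9.42, 7.06 and 7.21 FPKM in the same order. Its transgenic level was 1.31-fold that of control (0.91 to 1.88), within counting error. Galn, the galanin precursor that the RefSeq table names gal, had 3.88, 2.77 and 2.98 FPKM in the same order, with reads not recovered.

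Among the opioid and tachykinin precursors, only penkb had an FPKM ratio past 1.5-fold in the transgenic library against control, and its interval held 1. Penka, an enkephalin precursor, had 5.14 FPKM in the transgenic library, 4.92 in the knockout and 5.22 in control, and its transgenic level was 0.98 of control (0.66 to 1.46). Pdyn, the dynorphin precursor, had 5.95, 6.17 and 5.74 FPKM in the same order. Neither gene had a library that stood apart. Penkb was higher, at 4.37 FPKM in the transgenic library, 3.75 in the knockout and 2.70 in control, 1.62-fold higher in the transgenic library (0.99 to 2.68). Tac1, the substance P precursor, had 7.19, 8.50 and 9.27 FPKM in the same order, 1.29-fold lower in the transgenic library (0.87 to 1.91). Tac3a, the neurokinin B precursor, had 5.21, 5.24 and 5.74 FPKM, again within counting error.

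Cholecystokinin cckb had the highest level of all precursors and was the precursor whose counting interval lay above 1 in the transgenic library. Cckb, which codes for a satiety peptide of gut and brain, had 33.8 FPKM in the transgenic library, 29.2 in the knockout and 24.3 in control. Its transgenic level was 1.39-fold that of control (1.09 to 1.79) on 164 and 113 reads, while the interval of its knockout level over control, 0.93 to 1.55, held 1. The paralogue ccka had 6.16 FPKM in the transgenic library, 5.82 in the knockout and 8.17 in control. It was 1.33-fold lower in the transgenic library (0.82 to 2.16), within counting error. Trh, which drives thyrotropin release in mammals, had 7.08, 6.24 and 5.80 FPKM in the same order (1.22-fold over control in the transgenic library, 0.89 to 1.67).

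The gonadotropin-releasing hormone genes rested on few reads. Gnrh3, the form made by terminal nerve and preoptic neurons of zebrafish, had 7.16 FPKM in the transgenic library, 5.44 in the knockout and 3.77 in control, from 18, 13 and 9 reads. That is 1.90-fold higher in the transgenic library, the highest ratio of any member in that comparison, and its interval of 0.81 to 4.80 holds 1. Gnrh2, the midbrain form, had 1.37, 0.95 and 1.67 FPKM in the same order, from 6, 4 and 7 reads. Kiss1, which codes for a kisspeptin, had 0.68 FPKM in the transgenic library and 0.95 in control, from 3 and 4 reads.

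The somatostatin-like precursors were not measured equally well. Sst3, named sst6.1 in the RefSeq table, was even across libraries at 20.3 FPKM in the transgenic, 22.2 in the knockout and 20.7 in control, and its transgenic level was 0.98 of control (0.73 to 1.32). Sst6, named sst6.2 there, had 5.23 FPKM in the transgenic library, 1.99 in the knockout and 4.74 in control. The knockout level of sst6 was 2.38-fold below control, and the transgenic level was 2.63-fold above the knockout. Sst6 has 2 transcripts and its reads could not be recovered from the deposited values, so these ratios carry no interval. At its listed length of 701 bases, 1.99 FPKM would rest on few reads. For scale, cart2 at 698 bases had 17 reads at 3.78 FPKM in the knockout library. The remaining precursors were lower: nts (neurotensin) had 1.63, 1.33 and 1.21 FPKM in transgenic, knockout and control, and grp (gastrin-releasing peptide) 2.14, 2.23 and 1.62. Uts1, a peptide of the corticotropin-releasing factor family, had 1.61 FPKM in the transgenic library, 3.47 in the knockout and 2.42 in control, so that its transgenic level was 2.16-fold below the knockout (1.27 to 3.76) while neither differed from control beyond counting error.

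Granins are acidic proteins that pack the dense-core granule, and their largest transcript pool was lower in the transgenic library. Scg2b, a secretogranin II that also yields secretoneurin, had 69.1 FPKM in the transgenic library, 89.9 in the knockout and 96.5 in control, on 1407, 1777 and 1904 reads. The transgenic level was 0.72 of control (0.67 to 0.77) and the knockout level 0.93 of control (0.87 to 0.99). Scg3, which binds granins to the granule membrane, had 35.3, 41.8 and 41.4 FPKM in the same order and was 1.17-fold lower in the transgenic library (1.05 to 1.31). In both genes the transgenic library was the lowest of the 3. Among all genes compared between the transgenic and control libraries, 10.6% had a lower log2 ratio than scg2b and 26.8% a lower one than scg3. Chga, chromogranin A, was even at 12.7, 12.5 and 12.2 FPKM in transgenic, knockout and control.

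Scg2a, the paralogue of scg2b, was the granin with the clearest knockout difference. It had 4.50 FPKM in the transgenic library, 8.19 in the knockout and 4.99 in control, on 63, 112 and 68 reads. The knockout level was 1.64-fold that of control, or control 0.61 of the knockout (0.44 to 0.83), whereas the transgenic level was 1.11-fold below control (0.78 to 1.59).

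The files give 2 rows the symbol scg5, which is that of 7B2, the chaperone that the convertase PC2 needs, and their values differed. RefSeq lists identifier 393699 under that symbol, and whether the rows are copies of 1 gene is not known. The row with identifier 100330746 had 27.1 FPKM in the transgenic library, 24.1 in the knockout and 23.7 in control (1.14-fold over control in the transgenic library, 0.92 to 1.41). The row with identifier 393699 had 13.8, 20.8 and 20.5 FPKM in the same order and was 1.49-fold lower in the transgenic library (1.17 to 1.90). Summed, they gave 40.9 FPKM in the transgenic, 44.8 in the knockout and 44.2 in the control library. Reads of rows with the same symbol may be split between them, so each single value is uncertain.

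The processing enzymes had the lowest median of any role in the transgenic library relative to control, -0.84 as log2((FPKM + 1) / (FPKM + 1)), and all 3 were lower there. Pcsk1 codes for prohormone convertase 1/3, which makes the first cuts in many precursors. It had 7.05 FPKM in the transgenic library, 16.5 in the knockout and 20.0 in control. The transgenic level was 2.83-fold below control (2.45 to 3.28) and 2.33-fold below the knockout (2.01 to 2.71), while the knockout was 1.21-fold below control (1.09 to 1.36). Of the 19242 genes compared between the transgenic and control libraries, 47 had a lower log2 ratio than pcsk1. Its reads, 255 in the transgenic, 578 in the knockout and 701 in the control library, were scaled to 0.672 of those its listed length gives. This matched the deposited p-value of the transgenic comparison. The knockout reads took the same factor, and no knockout p-value was used. As for agrp2, other read numbers match too, so the pcsk1 intervals hold only if the ratio of its reads is that of its FPKM. Pcsk1 has 3 transcripts, and a gene-level FPKM does not separate a change in their mix from a change in their sum.

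Pcsk2 codes for convertase 2, which cuts later and with 7B2, and had 6.46 FPKM in the transgenic library, 11.9 in the knockout and 12.3 in control. It was 1.91-fold lower in the transgenic library (1.48 to 2.47), on 96 and 177 reads, and close to control in the knockout, 1.03-fold lower (0.83 to 1.28). Carboxypeptidase E (cpe) had 28.7, 40.5 and 42.5 FPKM in the same order. It was 1.48-fold lower in the transgenic library (1.38 to 1.59) and 1.05-fold lower in the knockout (0.98 to 1.12). In the transgenic library all 3 counting intervals lay below control. Among all genes compared between these libraries, 2.40% had a lower log2 ratio than pcsk2 and 7.99% a lower one than cpe.

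**Figure D2:**
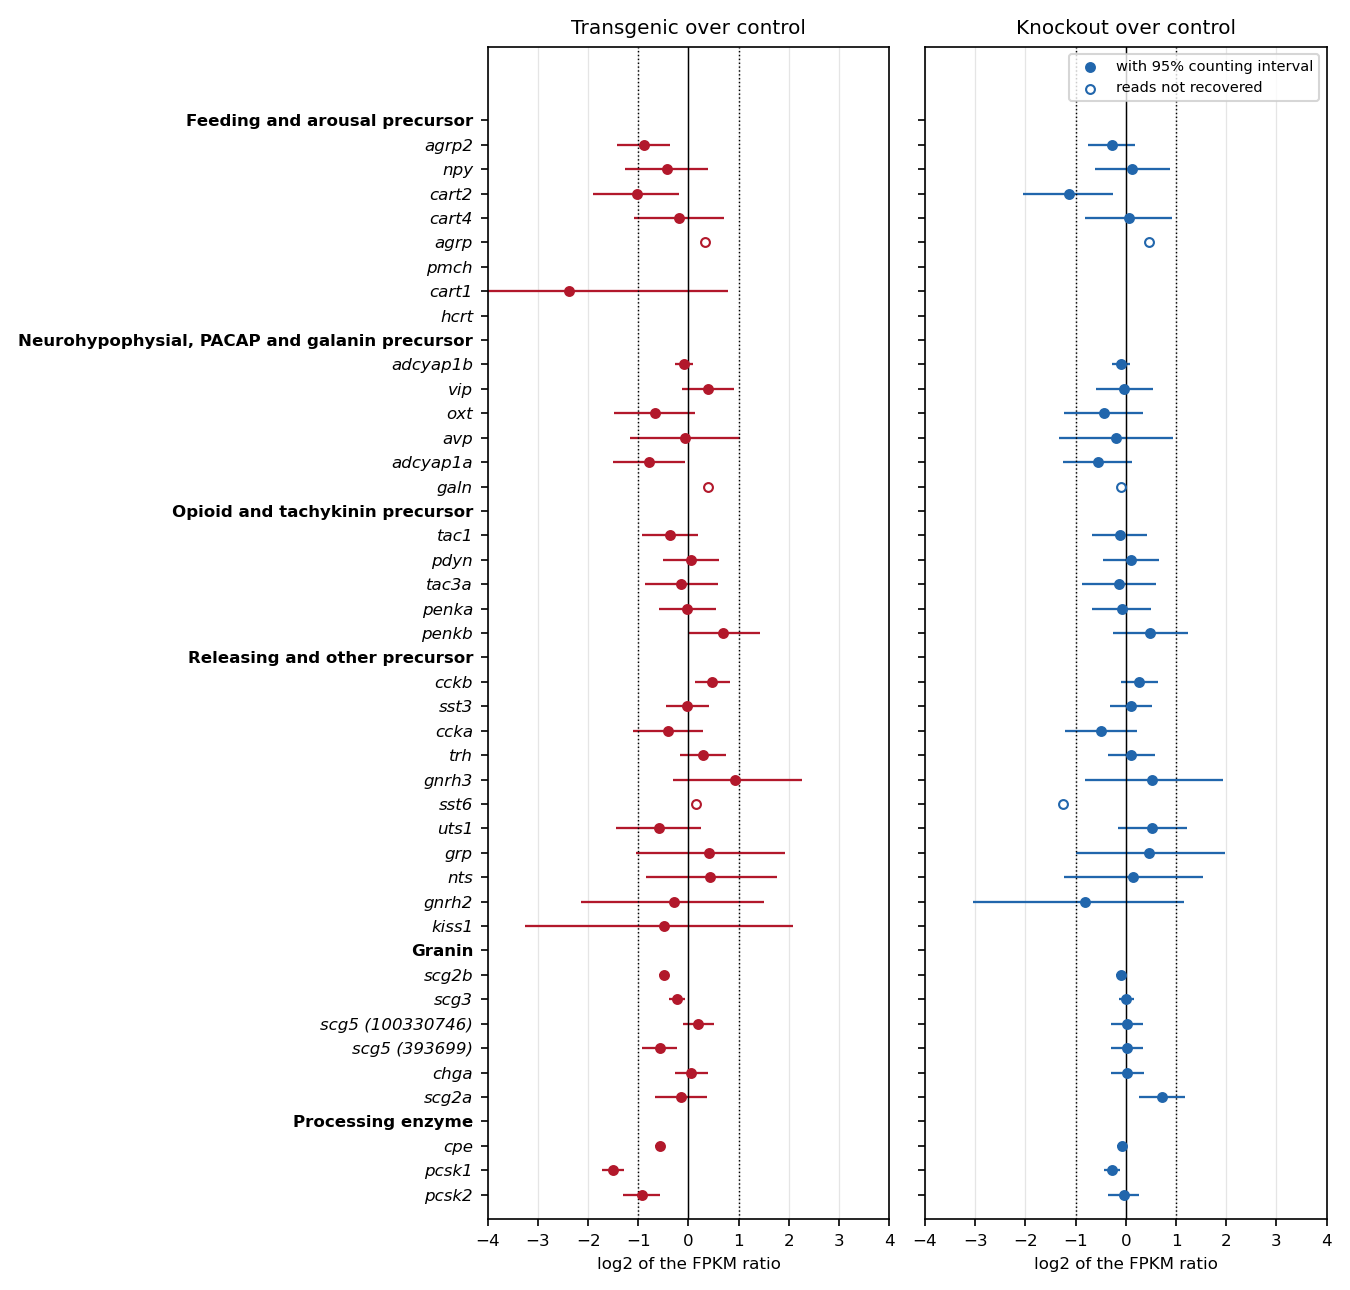
Ratio of FPKM over control on a log2 scale for each member, transgenic on the left and knockout on the right, with 95% counting intervals (filled circles) or without one where reads were not recovered (open circles). Pcsk1 in the transgenic library lies wholly left of the dotted line at 2-fold, the interval of cart1 runs past the left edge of the axis, and pmch and hcrt have no ratio because 1 library was at 0.

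Counted over the set, few members were past a 2-fold difference. Sizes here are log2((FPKM + 1) / (FPKM + 1)), which understates ratios of low genes, for rows with at least 1 FPKM in either library. Of 36 such rows, 2 were at least 2-fold lower in the transgenic library, pcsk1 at -1.38 and pmch at -1.06, and 0 were higher. Over all 19242 genes compared, 1.26% were 2-fold lower and 3.56% 2-fold higher. The pmch call rests on 4 reads in control and on a row that was compared only because of its control value. At 1.5-fold, 6 rows were lower, with agrp2, cart2, adcyap1a and pcsk2 joining, against a background of 7.01%, and 1 was higher, gnrh3, against 12.2%. Just short of that rule were oxt at -0.57, cpe at -0.55 and the scg5 row 393699 at -0.54 on the lower side and penkb at 0.54 on the higher side.

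By role the medians parted. The median log2 ratio of the transgenic over the control library was -0.05 over 27 precursor rows and -0.48 over 9 granin and processing rows, against 0.03 over all genes compared. The last 2 roles differed, with a median of -0.17 over the 6 granin rows and -0.84 over the 3 processing enzyme rows. No granin row was past 1.5-fold. Among precursor rows 11 lay above 0 and 16 below, and among granin and processing rows 2 lay above 0 and 7 below. Over all 19242 genes compared, 10108 lay above 0 and 9088 below. Within the precursors, the 6 feeding and arousal rows compared had a median of -0.59, with 5 below 0, which became -0.36 over 5 rows without pmch, and the 10 releasing and other rows one of 0.18, with 6 above 0. The feeding and arousal rows include agrp2, at -0.81, grouped by its listed symbol although the RefSeq table names it asip2b. The summed level of precursor rows was 184 FPKM in the transgenic library and 189 in control, while that of granin and processing rows was 205 FPKM in the transgenic library and 274 in control. A sum is led by its highest genes, here scg2b. The precursor sum was near equal although its genes were scattered, since cckb was higher and agrp2 and cart2 were lower.

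In the knockout library no row was past the 2-fold rule in either direction, out of 35 compared, where 0.798% of 18663 genes were higher and 0.664% lower. Genes without a knockout value, 4816 in all and at up to 3.29 FPKM in control, were not compared, pmch among them. Falls to under 0.58 FPKM in the knockout can therefore be missing from these counts, the background and the medians. The knockout figures of the lists below have the same limit. The rows nearest to the 2-fold rule were cart2 at -0.95 and sst6 at -0.94, and both were past it, 2 lower rows in all, with a pseudocount of 0.1 or 0.5 FPKM in place of 1. At 1.5-fold the same pair was lower, against a background of 4.0%, and scg2a was higher at 0.62, against 3.91%. The sst6 value has no interval. The median log2 ratio was -0.03 over the set, -0.05 over precursor rows and 0.01 over granin and processing rows, and -0.03 over all genes compared. Pcsk2, cpe, scg3 and chga were within 0.07 of 0 on this scale, while scg2b at -0.10 and pcsk1 at -0.27 had counting intervals below control. The scg2b interval ended at 0.99 of control and was not centred on the median log2 ratio of well measured genes, -0.04. Of all genes compared, 38.8% had a lower log2 ratio than scg2b and 19.5% a lower one than pcsk1.

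Set directly against the knockout library, the transgenic library had 1 row past the rule on each side, out of 35. Pcsk1 was lower at -1.12, where 1.08% of 18775 genes were, and sst6 was higher at 1.06, where 2.86% were. The sst6 call has no interval, as its reads were not recovered. At 1.5-fold, pcsk2, uts1 and scg2a joined pcsk1 on the lower side, which makes 4 rows against a background of 5.37%, and sst6 remained the 1 row on the higher side, against 10.3%. Granin and processing rows had a median of -0.48 and precursor rows one of 0.03. Taken apart, the granin rows had a median of -0.31 and the processing enzyme rows one of -0.80. This comparison shares the transgenic library with the one against control. It also leaves out genes without a knockout value, so higher calls from very low knockout levels can be missing.

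**Figure D3:**
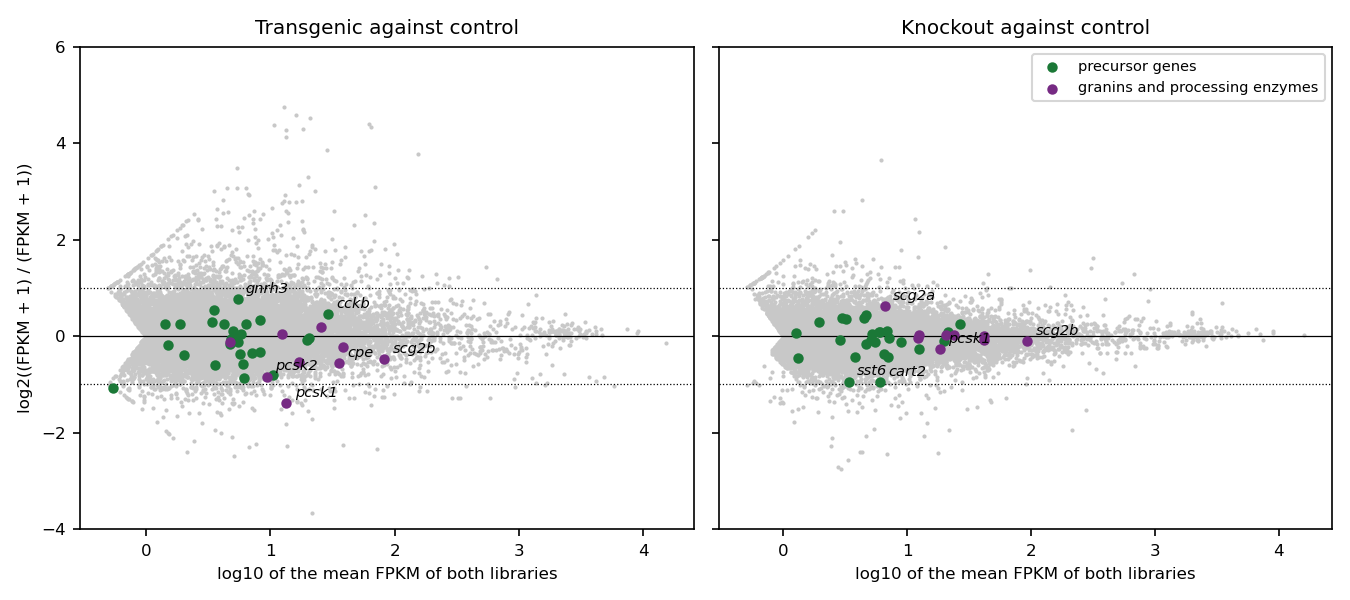
Each gene with at least 1 FPKM in either library (grey), with precursor rows (green) and granin and processing rows (purple) on top, as log2((FPKM + 1) / (FPKM + 1)) against the log10 of the mean FPKM; dotted lines mark 2-fold. In the transgenic panel pcsk1 at -1.38 lies under the lower line among genes of like level, and in the knockout panel cart2 at -0.95 and sst6 at -0.94 lie just inside it.

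On the log2((FPKM + 1) / (FPKM + 1)) scale, the other genes of granule biogenesis and peptide processing lay closer to 0 than the convertases. Of 40 such genes compared between the transgenic and control libraries, 26 lay below 0 and 14 above, where 9088 of all 19242 genes lay below. The median log2 ratio of the 40 was -0.17 and 0 were past the 2-fold rule. At 1.5-fold, 5 of the 40 were lower and 2 higher, against 7.01% and 12.2% of all genes compared. The higher ones were qpctla, with 5.17 FPKM in the transgenic library and 2.86 in control, and rab3da, with 4.62 in the transgenic library and 2.57 in control. Of the lower ones, pcsk1nl, which codes for the convertase 1/3 inhibitor proSAAS, had 18.4 FPKM in the transgenic library, 27.8 in the knockout and 31.7 in control. Vgf, a granin-like precursor, had 10.6, 14.7 and 18.3 FPKM in the same order, and rab27b, a granule-docking GTPase gene, had 2.36, 2.51 and 4.61. The other 2 were baiap3, with 1.54 FPKM in the transgenic library and 3.08 in control, and ica1, with 1.90 in the transgenic library and 3.55 in control. Pam, which amidates the ends of peptides, had the highest level of this list. It was even at 32.4 FPKM in the transgenic, 36.4 in the knockout and 35.7 in the control library. The synaptotagmin gene syt4 had 18.4, 23.2 and 24.1 FPKM in the same order. In the knockout 42 genes of the list were compared, with a median of -0.01 and 0 past the rule.

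Other peptide precursors, outside the set, spread from -1.06 to 1.43 in the transgenic library, against -1.06 to 0.77 for those in it. Of 32 compared between the transgenic and control libraries, 2 were at least 2-fold higher and 1 at least 2-fold lower, where 3.56% and 1.26% of all genes were, with a median of 0.07. The higher ones were sst2, at 30.1 FPKM in the transgenic library, 12.0 in the knockout and 10.5 in control, and agt, the angiotensinogen gene of the liver, at 44.5, 17.4 and 18.8. The lower one was pth2, at 0.47, 1.93 and 2.06, compared with control only because of its control value. Crhb, the corticotropin-releasing hormone gene, came close to the rule at -0.99, with 3.65 FPKM in the transgenic library, 6.78 in the knockout and 8.23 in control. In the knockout 1 of 31 was past the rule, the relaxin 3 gene rln3a, at 4.62 FPKM in the knockout and 13.5 in control, with 17.2 in the transgenic library. Nucb2a, the nesfatin precursor, and sst1.1 had high levels and small differences, with nucb2a at 37.6, 32.4 and 37.0 FPKM and sst1.1 at 27.5, 21.0 and 24.5 in transgenic, knockout and control. Between the transgenic and knockout libraries 4 of 30 were at least 2-fold higher and 0 lower, where 2.86% and 1.08% of all genes were. These were rln3a, agt, sst2 and vip2, the last at 8.79 FPKM in the transgenic library and 3.45 in the knockout.

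Markers of the cells that hold granules were set beside these values. Of 19 pan-neuronal markers 17 were lower in the transgenic library than in control, where 9088 of all 19242 genes were. Of the 19 markers, 0 were past the 2-fold rule, and their median was -0.17. They summed to 926 FPKM in the transgenic and 1059 in the control library. The most abundant of them, stmn1b, snap25a and snap25b, had transgenic levels of 0.93, 0.92 and 0.89 of control. Sv2a and syt1a were the lowest of the list, at 0.60 and 0.67 of control. Gap43 and tubb5 were above control, at 1.12-fold and 1.21-fold. In the knockout the median of the 19 markers was -0.05. Set against the knockout library all 19 were lower in the transgenic library, with a median of -0.20, where 8577 of all 18775 genes were lower. The part of the neuronal markers in the lower convertase and granin levels was not tested.

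Endocrine markers did not all share the direction of the convertases. Of 14 markers of the endocrine pancreas compared between the transgenic and control libraries, 3 were at least 2-fold higher and 0 lower. Of all genes compared, 3.56% were higher and 1.26% lower. The markers had a median of 0.19 and a summed level of 236 FPKM in the transgenic and 170 in the control library. The glucagon gene gcga, whose product the convertases cut, had 41.5 FPKM in the transgenic library, 8.08 in the knockout and 4.27 in control. Its paralogue gcgb had 16.8, 5.76 and 4.12 FPKM in the same order, while the insulin gene ins was at 39.3, 48.3 and 40.2. The other higher one, sst2, is also among the other precursors above. Neurod1, a transcription factor gene shared with neurons and among the 3 most abundant of the list, was lower, with 26.1 FPKM in the transgenic library, 34.8 in the knockout and 40.0 in control, the list's 1 gene past 1.5-fold on that side. How the levels of these endocrine transcripts bear on those of pcsk1 and pcsk2 was not tested. In the knockout 1 of 15 was at least 2-fold higher, against 0.798% of all genes compared. This was iapp, with 1.28 FPKM in the knockout library against a listed 0 in control. Iapp was compared only because of its knockout value.

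The markers of other secretory cells and of glia had medians between -0.18 and 0.19 in the transgenic library. Of 9 gut hormone cell markers compared between the transgenic and control libraries, 1 was past the rule on the lower side, where 1.26% of all genes were. This was gip, at 2.58 FPKM in the transgenic library, 8.39 in the knockout and 8.71 in control. The median of the list was 0.19. Pyya and mlnl, both among the 3 most abundant, were at 14.8 and 7.27 FPKM in the transgenic library, against 9.95 and 10.03 in control. Pituitary markers had a median of 0.00 over 6 genes and summed to 29.9 FPKM in the transgenic and 31.0 in the control library. Their 1 member past the rule was smtlb, higher at 1.80 FPKM in the transgenic library against 0.34 in control. Of all genes compared, 3.56% were 2-fold higher. Smtlb was compared only because of its transgenic value. Chromaffin and interrenal markers had a median of -0.18 over 4 genes, 0 past the rule. Glia markers had a median of 0.18 over 9 genes, 0 past the rule.

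Leukocyte markers had medians further from 0 than the marker lists above. All 10 macrophage and microglia markers were higher in the transgenic library than in control, where 10108 of all 19242 genes were. The markers had a median of 0.83, and 3 were past the rule, against 3.56% of all genes compared. In the knockout 9 of 10 were lower, where 10153 of all 18663 genes were. The markers had a median of -0.66 there, with 1 past the rule, against 0.664% of all genes. Their summed level was 754 FPKM in the transgenic, 338 in the knockout and 442 in the control library. Most of this sum was 1 gene, apoeb, at 651 FPKM in the transgenic, 317 in the knockout and 403 in the control library. Of 8 genes listed as neutrophil markers 4 were at least 2-fold higher and 1 at least 2-fold lower in the transgenic library. The shares over all genes were 3.56% and 1.26%. The neutrophil markers had a median of 0.90 in the transgenic library and -0.45 in the knockout. Their sum was 1072 FPKM in the transgenic, 1419 in the knockout and 1353 in the control library, and 1 gene, cpa5, turned it. Cpa5 was the lower one, with 606 FPKM in the transgenic library, 1346 in the knockout and 1262 in control. The next highest gene of the list in control was lyz at 36.4 FPKM, so cpa5 is not taken here as a measure of neutrophils. Without cpa5 the other 7 markers summed to 466 FPKM in the transgenic, 72.7 in the knockout and 90.9 in the control library. Their median in the transgenic library against control was 1.09. Most of the transgenic sum came from mmp9 at 124, mmp13a at 121 and lect2l at 115 FPKM, against 5.16, 4.78 and 21.6 in control. Mpx and lyz were under the 2-fold rule, at 1.75-fold and 1.65-fold over control. Of the 7, csf3r was the 1 below control, at 1.21 FPKM in the transgenic library and 1.70 in control. Whether the share of leukocyte RNA bears on the levels of granule genes was not tested.

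**Figure D4:**
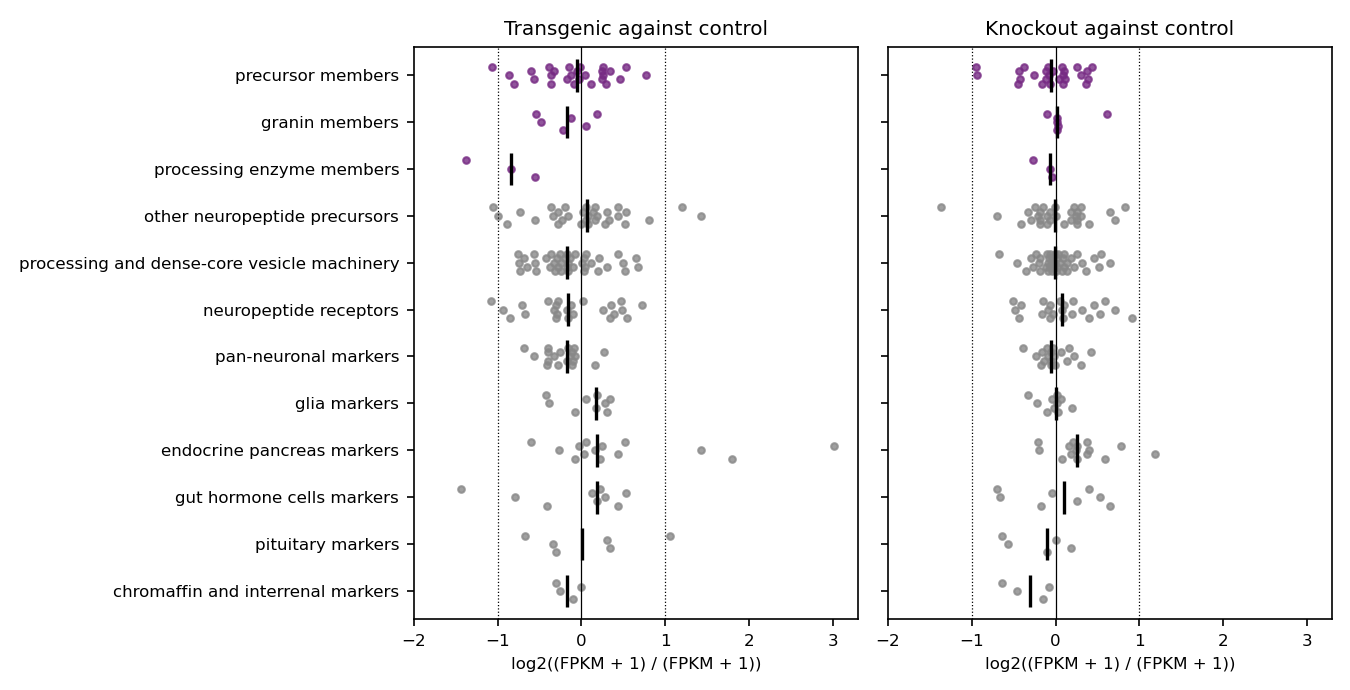
Log2((FPKM + 1) / (FPKM + 1)) of each gene compared in the transgenic (left) and knockout (right) library against control, by role of the members (purple) and by marker list (grey); black bars are medians and dotted lines mark 2-fold. The processing enzyme members lie furthest left in the transgenic panel, at a median of -0.84, with pan-neuronal markers at -0.17 and endocrine pancreas markers at 0.19.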

How the data were processed

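The authors deposited FPKM, per the file headers, rounded to 2 decimals, in 3 tables of whole-larva RNA; in the 2 comparison tables the authors wrote 0 as 0.01, read here as 0. These also hold the authors' deposited log2 ratios, p-values and adjusted scores. The submitters' processing notes list HISAT, StringTie, DESeq2 and GRCz11; their roles and versions are not given in the sources used here. From the table of all 3 libraries came 19699 complete rows, which are sorted by knockout FPKM and end at 0.58.

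The deposited tables give no counts. For a gene at 0 in control, the deposited p-value was read as that of a Poisson comparison, which falls by a fixed factor with each read. All 814 such genes in the transgenic comparison (0.1 FPKM or more, deposited p-value under 0.9) and all 15 in the knockout one lay within 0.05 of whole reads, with an offset of 125 bases in length and a robust variation of 2.29% in the depth. Reads from FPKM, length and depth matched the deposited p-value within 1%, searched within 1 read or 3% of the estimate, for 33 of 39 rows, and for 8090 of 8090 genes checked with 1 transcript listed and 7618 of 10523 with several. For 3 rows (pcsk1, agrp2, adcyap1a) reads were scaled at a fixed FPKM ratio to within 0.25 (natural log) of the p-value of the transgenic comparison, and for 3 they were not recovered. The knockout reads of the scaled rows took the same factor. The knockout depth is the control depth times the fitted ratio.

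No test was run, with 1 library per group. The pseudocount was 1 FPKM and the floor 1 FPKM in either library. Members at 5 FPKM or more in any library, or past the 2-fold rule, are described in full. From the other lists, genes past the rule and the 3 most abundant are named where they bear on the set, and genes past 1.5-fold were added after their values were seen. Members and lists were chosen with earlier results of these data known. Lists matched by symbol or by RefSeq symbol of assembly GRCz12tu on the gene identifier. Scripts ran in Python 3.11.15 with numpy 2.4.6, pandas 2.3.3 and scipy 1.17.1 and were tested on simulated data. No protein or promoter sequences were used.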

Additional observations from a re-analysis of the deposited data

How the results depend on the processing

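Each count and median over the set was recomputed with pseudocounts of 0.1 and 0.5 FPKM, with no floor, a floor of 5 FPKM and a floor on the mean of both libraries, with ratios centred on the median of well measured genes, and at 1.5-fold. Between the transgenic and control libraries the 2 lower calls became 1, pcsk1, with a floor of 5 FPKM or a floor on the mean, both of which leave pmch out. At 1.5-fold they became 6, with 1 higher call. In the knockout the 0 lower calls became 2, cart2 and sst6, with either pseudocount (cart2 at -1.10 and -1.03, sst6 at -1.21 and -1.07) and 2 at 1.5-fold, with 1 higher call, and the median of -0.03 became 0.0105 after centring. Between the transgenic and knockout libraries the 1 lower call became 2 with a pseudocount of 0.1 FPKM and 4 at 1.5-fold. With a pseudocount of 0.1 FPKM cart2 also passed the rule in the transgenic library against control. Summing the scg5 rows, chosen after seeing the data, changed none of these counts. Leaving pmch out of the feeding rows and cpa5 out of the neutrophil markers was also chosen after seeing the data. Low precursors are limited by depth, and intervals leave out variation between pools of larvae. No paired analysis was possible because each group has 1 library and no result comes from a test.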

Other observations

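Receptors for the peptides of the set were mostly under the floor in whole larvae. Of 62 receptor genes, 24 had at least 1 FPKM in the transgenic or control library, with a median log2 ratio of -0.16. Of the 24, 15 lay below 0, where 9088 of all 19242 genes did. The 1 receptor past the 2-fold rule was crhr2 (on the more abundant of its 2 rows), on the lower side, where 1.26% of all genes were. This receptor for peptides of the corticotropin-releasing factor family was at 3.43 FPKM in the transgenic library, 8.71 in the knockout and 8.38 in control. The PACAP receptor gene adcyap1r1a, the most abundant of the list, had 6.0, 10.9 and 11.6 FPKM in the same order, and the somatostatin receptor gene sstr5 had 6.90, 4.10 and 4.71. In the knockout the list had a median of 0.08 over 23 genes, with 0 past the rule. Between the transgenic and knockout libraries 3 of 22 were lower past the rule, where 1.08% of all genes were: crhr2, gnrhr3, listed at 0 in the transgenic library and at 1.43 FPKM in the knockout, and mchr1b, at 0.26 in the transgenic library and 1.66 in the knockout. Gnrhr3 and mchr1b were compared only because of their knockout values.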
